A study of Mus musculus with 6 samples.

Results

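Purinergic and adenosine signalling genes encode the receptors that sense nucleotides and adenosine outside the cell and the surface enzymes that convert one into the other. The group comprised 10 genes, taken by name: the adenosine receptor genes Adora2a, Adora2b and Adora3, the ATP-gated channel genes P2rx4 and P2rx7, the P2Y receptor genes P2ry2, P2ry13 and P2ry14, and the ectonucleotidase genes Entpd1 and Nt5e. Every probe set whose only gene symbol was one of these names was used, which gave 18 probe sets for 8 of the 10 genes, among 34945 probe sets with 1 symbol for 18193 genes in all. No probe set used here names Adora2a or Adora2b alone, and these receptors were not analysed here.

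Both groups were myeloid cells sorted from femur and tibia marrow of Hdc-GFP mice on a C57BL/6 background, which carry a reporter of green fluorescent protein (GFP) for Hdc, the gene of histidine decarboxylase. Sorting took GFP-positive or GFP-high cells that also bore the myeloid integrin CD11b, and split them by the surface antigen Gr1. The 3 Gr1lo arrays came from cells with low Gr1 and the 3 Gr1hi arrays from cells with high Gr1. All 6 samples carry a female label, no treatment is given for either group, and the labels state neither the age of the mice nor whether replicates were separate animals or pools. The p-values therefore measure only the spread between these samples, which may be technical in part. Replicate 3 of each group differed strongly from replicates 1 and 2 in the transcript Xist, as given below. The replicates of a group were thus not all made from the same RNA.

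Dying or activated cells release ATP, which acts on P2X channels and on some P2Y receptors. CD39, the product of Entpd1, cuts ATP and ADP to AMP, and CD73, the product of Nt5e, cuts AMP to adenosine. Adenosine then acts on its own receptors, and in neutrophils ATP and adenosine are known to steer chemotaxis and to restrain or promote activation, depending on the receptor.

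Values are log2 probe set values that the authors made with GCRMA, and a gene with several probe sets was read from the one of highest mean over the 6 arrays. Differences are Gr1lo minus Gr1hi on this scale and were tested with limma over 12732 genes, with Benjamini-Hochberg adjustment and a threshold of 0.05. Levels of different probe sets were not compared with each other. The 3 control probe sets of an absent transcript never exceeded 2.77, and a value below that was read as not distinguishable from background. The number of arrays limits the precision.

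The arrays of the groups lay far apart as a whole. Pairs of Gr1lo arrays correlated at 0.992 to 0.996 and pairs of Gr1hi arrays at 0.994 to 0.995, while pairs of 1 Gr1lo and 1 Gr1hi array correlated at 0.917 to 0.942. Of the tested genes, 24.6% were called lower and 31.8% higher in Gr1lo, so that calls higher in Gr1lo made up 56.4% of all calls. Centring each array on the median of its tested genes turned that share into 21.7%, and centring on the spiked hybridization controls turned it into 72.3%. Over all tested genes the median difference was -0.03 on the deposited scale, -0.70 with median centring and 0.23 with control centring, and every size below is on the deposited scale unless a centring is named. Of 13 neutrophil lineage markers, 6 did not pass the test, among them Ltf, Camp and S100a8, which had values near the array maximum in both groups (14.16, 14.66 and 14.87 in Gr1lo, against 14.32, 14.70 and 14.94 in Gr1hi). The early granule genes Elane and Mpo were higher in Gr1lo (11.61 and 13.91 in Gr1lo, against 4.62 and 9.93 in Gr1hi). Mmp8, Mmp9, Cxcr2, Csf3r and Itgam were lower in Gr1lo, by -2.46, -2.01, -2.99, -2.68 and -0.89, and their part in the differences below was not tested. Xist, which is transcribed from the inactive X chromosome, was high only on the replicate 3 arrays (10.95 in Gr1lo and 10.14 in Gr1hi), while the Y-linked gene Eif2s3y lay between 9.02 and 10.66 on all 6 arrays, although all carry the female label. The reporter of Gr1lo replicate 3 is also described in a way that leaves unclear whether its cells were GFP-positive. Leaving out both replicate 3 arrays kept all 5 calls described next, with P2ry2 at an adjusted p of 0.0416.

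Transcripts of both steps of the surface pathway from ATP to adenosine were far lower in Gr1lo cells, as was that of the ADP receptor P2Y13. Of the 8 measured members, 5 passed the filter on low values, in each case on all 3 arrays of both groups. All 5, namely P2rx4, P2ry2, P2ry13, Entpd1 and Nt5e, were called lower in Gr1lo, where 24.6% of all tested genes were, and all 5 stayed called at a threshold of 0.01, as did 18.8% of the tested genes as lower. None was called higher (limma, 0 of 5, and 0 at an unadjusted p under 0.05). Groups that did not overlap, with Gr1lo lower, were found in all 5 and in 30.7% of the tested genes, against 34.8% with Gr1lo higher. At least 8-fold lower calls numbered 3 among the members and made up 1.9% of the tested genes. In the other 3 members, Adora3, P2rx7 and P2ry14, both group means lay within the background level.

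**Figure D1:**
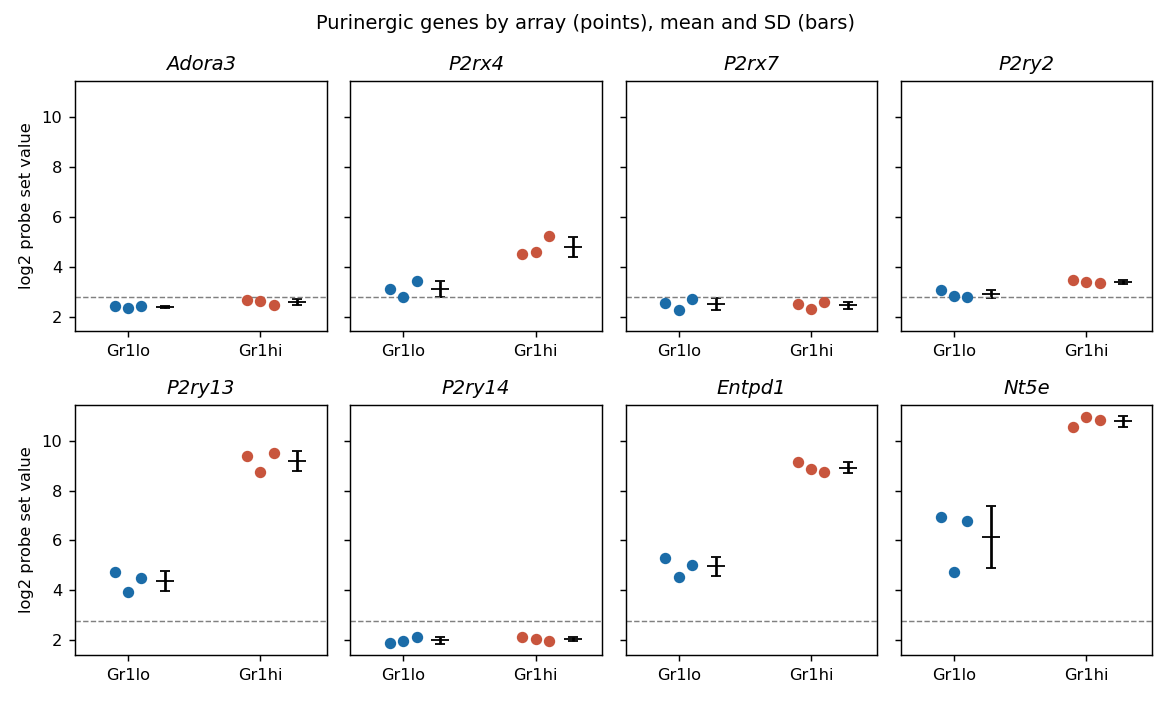
Log2 probe set value (y axis) of the 8 measured purinergic genes on each Gr1lo and Gr1hi array, 1 point per array in the order of replicates 1 to 3, with mean and SD beside the points (n = 3 per group). The dashed line is 2.77, the highest value of the absent-transcript controls; the groups lie furthest apart in P2ry13, Nt5e and Entpd1.

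Entpd1 encodes CD39, which takes the terminal phosphates off extracellular ATP and ADP. Its value was 5.32, 4.55 and 5.03 in Gr1lo replicates 1, 2 and 3, against 9.15, 8.84 and 8.74 in Gr1hi replicates 1, 2 and 3. Every Gr1lo array lay more than 3 log2 units below every Gr1hi array. The means were 4.97 ± 0.39 in Gr1lo and 8.91 ± 0.21 in Gr1hi (SD, n = 3 each), a difference of -3.95 (SE 0.23, 95% interval -4.46 to -3.43, adjusted p = 8.38e-07), or 15.4-fold. Only 1.06% of the tested genes had a lower difference. Its other probe sets gave the same direction at other levels: one averaged 4.92 ± 0.49 in Gr1lo and 7.99 ± 0.15 in Gr1hi, and the other 2.95 ± 0.15 in Gr1lo and 4.99 ± 0.11 in Gr1hi. These differences of -3.07 and -2.04 had adjusted p-values of 5.60e-06 and 3.77e-06 in the fit over 22695 probe sets, of which 26.2% were called lower in Gr1lo and 30% higher.

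Nt5e encodes CD73, which makes adenosine from AMP at the cell surface. Its main probe set read 6.95, 4.73 and 6.79 in Gr1lo replicates 1, 2 and 3, against 10.54, 10.95 and 10.82 in Gr1hi replicates 1, 2 and 3. The groups did not overlap, and Gr1lo replicate 2 stood about 2 log2 units below the other Gr1lo arrays. The means of 6.15 ± 1.24 in Gr1lo and 10.77 ± 0.21 in Gr1hi (SD, n = 3 each) differed by -4.61 (SE 0.50, 95% interval -5.73 to -3.49, adjusted p = 3.63e-05), or 24.5-fold. Without Gr1lo replicate 2 the difference was -3.90, with an adjusted p of 1.55e-07. A second Nt5e probe set, at 2.49 ± 0.14 in Gr1lo and 3.63 ± 0.38 in Gr1hi, differed by -1.14 (adjusted p = 4.75e-04), and its Gr1lo level was within background. The third, at 3.23 ± 0.16 in Gr1lo and 3.32 ± 0.36 in Gr1hi, did not pass the test (difference -0.10, adjusted p = 0.677). With the mean of the 3 probe sets the difference of Nt5e was -1.95 (adjusted p = 9.00e-05), so its size rests on the brightest one.

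P2ry13 encodes a receptor for ADP that couples to inhibitory G proteins, and it had the largest difference of the members. It read 4.73, 3.92 and 4.50 in Gr1lo replicates 1, 2 and 3, against 9.37, 8.74 and 9.48 in Gr1hi replicates 1, 2 and 3. All Gr1lo arrays lay above background and at least 4 log2 units below any Gr1hi array. The means of 4.38 ± 0.42 in Gr1lo and 9.20 ± 0.40 in Gr1hi (SD, n = 3 each) differed by -4.82 (SE 0.27, 95% interval -5.42 to -4.21, adjusted p = 7.26e-07), or 28.2-fold. A lower difference was found in 0.526% of the tested genes, against 0.652% for Nt5e. The array has 1 probe set for P2ry13 under this rule.

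The promoters of the 4 members with the largest differences are shown because these genes were lower together in Gr1lo. They are the 250 bases before and 50 after a RefSeq gene start in GRCm38.p6, written 5′ to 3′ on the gene's strand. Of the 10 genes, 9 had an entry, and Entpd1 had a second start that is not printed. Capitals mark any of 5 short motifs on either strand. These were TGACG, the half-site of the cAMP response element, then ACGTG, a core of the hypoxia response element that can overlap the half-site by 3 letters, then GCGTG, another form of that core, then TTGCNNAA, a site of the C/EBP factors of granulocytes, and last GAGGAA, a site of the PU.1 type.
Entpd1, chr19:40612116-40612415, plus strand: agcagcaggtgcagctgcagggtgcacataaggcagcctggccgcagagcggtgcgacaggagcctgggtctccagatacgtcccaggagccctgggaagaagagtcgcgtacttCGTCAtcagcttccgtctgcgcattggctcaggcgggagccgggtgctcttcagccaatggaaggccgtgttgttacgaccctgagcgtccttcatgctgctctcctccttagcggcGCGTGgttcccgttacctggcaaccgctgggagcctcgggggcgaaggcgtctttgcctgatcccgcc
Nt5e, chr9:88327359-88327658, plus strand: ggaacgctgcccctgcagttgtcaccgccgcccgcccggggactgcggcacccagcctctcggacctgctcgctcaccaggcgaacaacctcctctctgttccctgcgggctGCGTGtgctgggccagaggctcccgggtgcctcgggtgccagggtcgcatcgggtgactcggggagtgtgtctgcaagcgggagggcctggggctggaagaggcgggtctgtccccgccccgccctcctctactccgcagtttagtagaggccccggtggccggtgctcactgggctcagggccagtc
P2ry13, chr3:59210833-59211132, minus strand: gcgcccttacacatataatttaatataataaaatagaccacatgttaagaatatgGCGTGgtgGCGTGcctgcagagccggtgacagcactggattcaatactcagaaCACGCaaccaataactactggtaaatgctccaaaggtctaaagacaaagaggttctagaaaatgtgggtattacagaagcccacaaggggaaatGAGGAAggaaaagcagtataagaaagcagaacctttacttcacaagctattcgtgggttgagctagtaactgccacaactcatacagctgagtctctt
P2rx4, chr5:122707294-122707593, plus strand: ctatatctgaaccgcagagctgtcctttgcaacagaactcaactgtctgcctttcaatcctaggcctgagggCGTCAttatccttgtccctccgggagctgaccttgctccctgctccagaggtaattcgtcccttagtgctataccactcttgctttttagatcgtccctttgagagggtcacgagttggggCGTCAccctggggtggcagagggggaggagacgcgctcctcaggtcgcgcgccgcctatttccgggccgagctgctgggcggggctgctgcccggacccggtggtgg

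TGACG was found 1 time at the printed Entpd1 start and 2 times at P2rx4, and 20.8% of all 32851 promoters of this length hold it. GCGTG was found 1 time at Entpd1, 1 time at Nt5e and 3 times at P2ry13, against 32.4% of all promoters. GAGGAA was found 1 time at P2ry13, against 28.3% of all. The second Entpd1 start, not printed, held GAGGAA 2 times and TGACG 1 time. ACGTG (19.6% of all) and TTGCNNAA (10.8% of all) were in none of the 4 windows. Both were found at each start of P2ry2, the remaining called member, which is not printed. No motif was in all 4 printed windows. The share of G and C was 64.0% at Entpd1, 71.0% at Nt5e, 42.3% at P2ry13 and 60.3% at P2rx4, around a median of 52.7% over all promoters. These are matches of letters and not binding sites.

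P2rx4 encodes an ATP-gated cation channel found on myeloid cells and, in part, on their lysosomes. It read 3.09, 2.80 and 3.44 in Gr1lo replicates 1, 2 and 3, against 4.53, 4.61 and 5.24 in Gr1hi replicates 1, 2 and 3. The groups did not overlap, and the Gr1lo arrays lay just above background. The means of 3.11 ± 0.32 in Gr1lo and 4.79 ± 0.39 in Gr1hi (SD, n = 3 each) differed by -1.68 (SE 0.24, adjusted p = 2.10e-04), or 3.21-fold, and since the Gr1lo level is near background the fold is open to its level. Of the other 3 probe sets, 2 were also called lower in Gr1lo, by -0.52 (2.75 ± 0.06 in Gr1lo and 3.27 ± 0.19 in Gr1hi, adjusted p = 0.00463) and by -0.45 (2.67 ± 0.22 in Gr1lo and 3.12 ± 0.12 in Gr1hi, adjusted p = 0.0136). The remaining one stayed within background in both groups. With the mean of the 4 probe sets the difference was -0.71 (adjusted p = 8.28e-04).

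P2ry2 encodes a receptor for ATP and UTP that neutrophils use in chemotaxis. Its only probe set read 3.09, 2.84 and 2.80 in Gr1lo replicates 1, 2 and 3, against 3.47, 3.39 and 3.33 in Gr1hi replicates 1, 2 and 3. The groups did not overlap, but all arrays lay within 1 log2 unit of background. The difference of -0.49 (SE 0.12, adjusted p = 0.00599), or 1.40-fold, was the smallest of the 5. It was -0.23 with control centring (adjusted p = 0.278) and -1.16 with median centring (adjusted p = 2.50e-05), so its call rests on the scale. The other 4 kept the call and the direction on each of these scales.

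**Figure D2:**
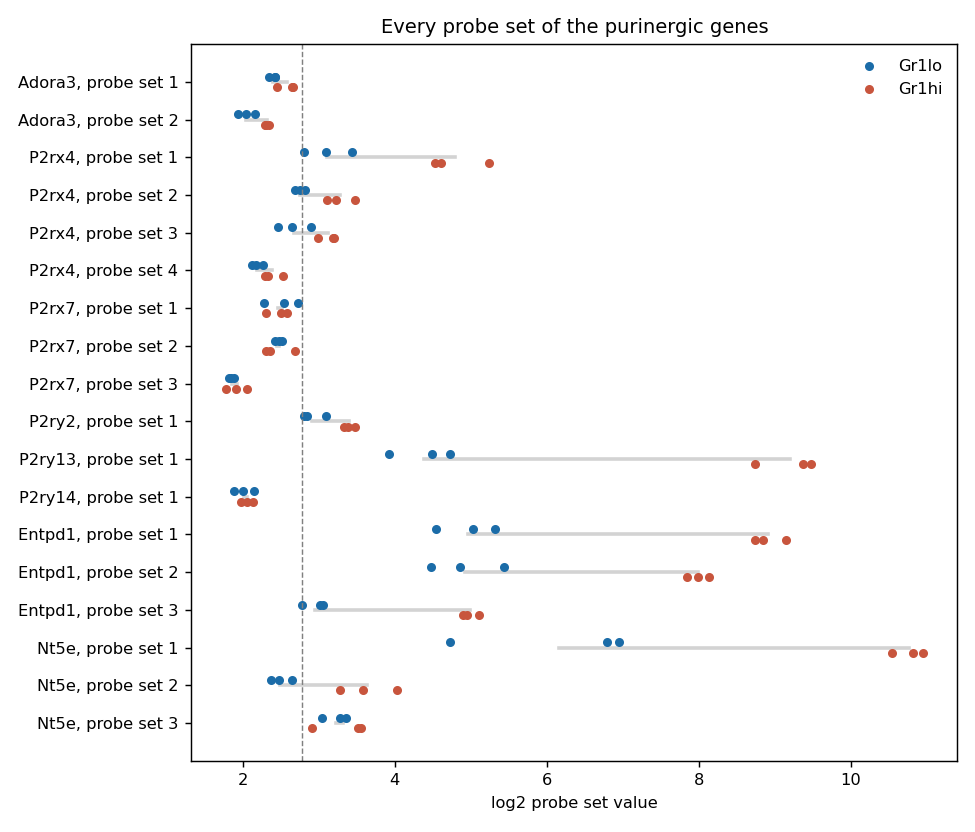
Log2 probe set value (x axis) of all 18 probe sets of the 8 measured genes, with 3 Gr1lo points above and 3 Gr1hi points below in each row and a grey bar joining the group means. Of the 11 probe sets that passed the filter 10 were called lower in Gr1lo, where 26.2% of all tested probe sets were, and the third of Nt5e was not called; the dashed line is 2.77.

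The 3 members that did not pass the filter gave no usable level. P2rx7 encodes the channel that opens at high ATP and starts the NLRP3 inflammasome. Its brightest probe set read 2.54, 2.27 and 2.72 in Gr1lo, against 2.51, 2.30 and 2.58 in Gr1hi, and all 3 of its probe sets lay within background on every array. The groups overlapped, and the difference in a fit without the filter was 0.05 (95% interval -0.24 to 0.34, adjusted p = 0.805). P2ry14, the gene of the receptor for UDP-glucose, read 1.88, 2.00 and 2.15 in Gr1lo, against 2.13, 2.06 and 1.98 in Gr1hi (difference -0.05, 95% interval -0.24 to 0.15, adjusted p = 0.715). Adora3, the gene of the adenosine receptor A3, read 2.42, 2.35 and 2.43 in Gr1lo, against 2.65, 2.64 and 2.45 in Gr1hi. Its groups did not overlap, yet both lay within background, and the difference of -0.18 (95% interval -0.39 to 0.03) had an adjusted p of 0.155. At this level a transcript cannot be told from none, so these values do not show that the receptors are absent.

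**Figure D3:**
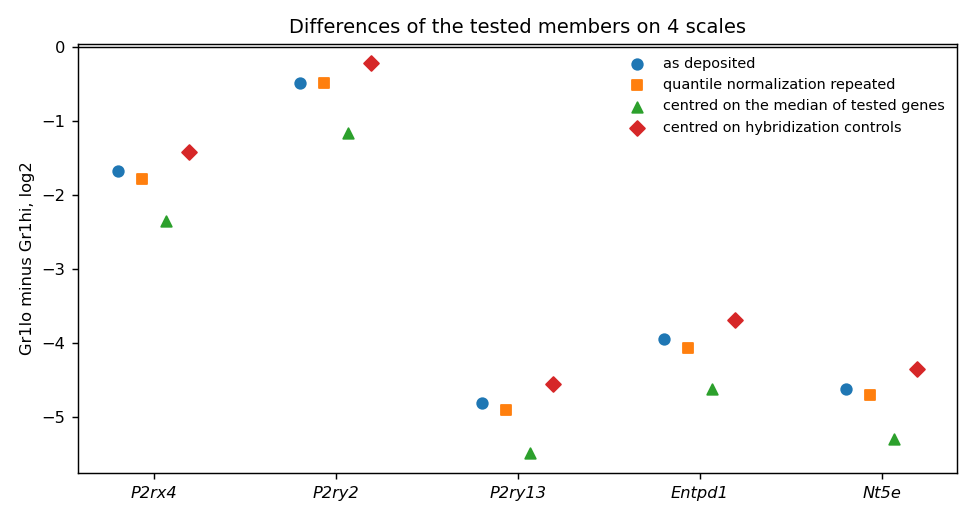
Difference of log2 values, Gr1lo minus Gr1hi (y axis), of the 5 tested purinergic genes on the deposited scale, after repeated quantile normalization, and with median centring or on the hybridization controls. All points lie below 0; P2ry2 is nearest to it at -0.23 with the last centring.

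Neighbouring genes were read because several of these receptors lie in clusters. P2ry12, the ADP receptor gene next to P2ry13 on chromosome 3, read 1.87, 1.97 and 2.13 in Gr1lo, against 2.91, 4.27 and 4.69 in Gr1hi. It was called lower in Gr1lo (difference -1.97, SE 0.37, adjusted p = 0.00136), but its Gr1lo level was within background and its Gr1hi replicates spread by 0.93 (SD). Med12l, whose span in RefSeq covers P2ry13 and P2ry14, read 3.31, 2.82 and 2.89 in Gr1lo, against 7.23, 6.79 and 6.74 in Gr1hi (difference -3.91, SE 0.22, adjusted p = 7.03e-07). P2ry14 stayed at background within the same span, and whether any of these probe sets reads transcript of its host or guest gene was not tested. P2ry6, the UDP receptor gene next to P2ry2, was lower in Gr1lo by -0.98 (2.29 ± 0.27 in Gr1lo and 3.27 ± 0.42 in Gr1hi, adjusted p = 0.00271). Camkk2 overlaps P2rx4 and went the other way, at 9.91 in Gr1lo and 9.49 in Gr1hi (difference 0.42, adjusted p = 0.0132). Next to Nt5e, Snx14 was lower in Gr1lo by -1.10 (adjusted p = 2.25e-04), and next to Entpd1, Tctn3 did not pass the test (difference -0.10, adjusted p = 0.611).

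P2ry13 had many tested genes with a like pattern. Over the 6 arrays the highest Pearson correlations with it were those of Mctp1 (r = 1.000, difference -0.61), Sfmbt2 (r = 0.999, difference -5.91) and Smpd2 (r = 0.999, difference -1.67), and 336 tested genes had an r above 0.99. The arrays form 2 groups, so such an r mostly reflects the group difference, and the 3 are named as a description.

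The rest of the purinergic pathway held calls in both directions, in numbers that rest on the scale. Among 66 tested genes of 6 further lists, 22 were called lower and 17 higher in Gr1lo, and 27 did not pass, where 24.6% of all tested genes were called lower and 31.8% higher. With median centring 44 of the 66 were lower and 9 higher. In the other purinergic receptor genes 3 of 7 tested were lower and 0 higher (limma, 0 also at an unadjusted p under 0.05), namely P2ry12, P2ry6 and P2ry10, all within background in Gr1lo. These 3 entered the test only through their Gr1hi arrays, since P2ry12 and P2ry6 passed the filter on 0 Gr1lo arrays and P2ry10 on 1, so that their count is no evidence about the list. The list's median difference was -0.36, against -0.03 over all tested genes, and with median centring it was -1.03, with 6 of the 7 called lower. With control centring P2ry10 lost its call, at -0.20, and P2rx1, an ATP-gated channel gene, was called higher, at 0.74 against 0.48 on the deposited scale.

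The other enzyme genes for extracellular nucleotides were called in both directions on the deposited scale. Bst1, which encodes CD157, an enzyme related to CD38 that acts on NAD, was 28.9-fold lower in Gr1lo: it read 7.56, 6.23 and 7.41 in Gr1lo, against 11.79, 11.97 and 12.00 in Gr1hi (difference -4.85, SE 0.30, adjusted p = 1.30e-06). Its other probe set differed by -6.08. Entpd3, a relative of Entpd1, was lower by -1.55 (2.26 ± 0.21 in Gr1lo and 3.80 ± 0.11 in Gr1hi, adjusted p = 7.88e-06), but it passed the filter on 0 Gr1lo arrays and so entered the test only through Gr1hi. Acpp, a phosphatase gene whose membrane form can cut AMP, was lower by -0.94 (adjusted p = 9.66e-04), while neither of its dimmer probe sets passed. Against these, Enpp4, an ectophosphodiesterase gene, was 5.19-fold higher in Gr1lo at 7.16 ± 0.33, against 4.78 ± 0.20 in Gr1hi (adjusted p = 1.57e-05). Entpd5, whose enzyme acts on nucleoside diphosphates inside the endoplasmic reticulum, was higher by 0.94 (adjusted p = 2.91e-04), a call lost with median centring. Its other tested probe sets were also called higher on the deposited scale, by 0.99 to 1.66. Of 10 tested genes in this list 3 were lower and 2 higher, against 24.6% lower and 31.8% higher over all tested genes, with a median of -0.17. With median centring 8 were lower and 1 higher, with a median of -0.84.

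Several genes of the list for adenosine transport and metabolism were higher in Gr1lo, unlike Entpd1 and Nt5e. Of those named here, Ada, Ahcy and Adk encode enzymes that use or release adenosine itself. Ada, which encodes adenosine deaminase, read 10.96, 11.35 and 11.08 in Gr1lo, against 9.01, 9.57 and 9.25 in Gr1hi. These groups did not overlap, and Ada was 3.62-fold higher in Gr1lo (difference 1.85, SE 0.16, adjusted p = 9.12e-06). Pnp, which encodes the purine nucleoside phosphorylase that acts after it, was 2.90-fold higher (12.63 ± 0.15 in Gr1lo and 11.10 ± 0.17 in Gr1hi, adjusted p = 3.10e-06). Ahcy, whose enzyme frees adenosine from S-adenosylhomocysteine, was 13.6-fold higher at 7.58 ± 0.65 in Gr1lo, against 3.81 ± 0.11 in Gr1hi (adjusted p = 5.86e-06). Nt5c, a nucleotidase gene of the cytosol, was 5.57-fold higher at 8.91 ± 0.40 in Gr1lo, against 6.43 ± 0.44 in Gr1hi (adjusted p = 3.43e-05). Mtap and the adenosine kinase gene Adk were also called higher, but Adk, at 0.68 on the deposited scale, differed by 0.00 with median centring.

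In the same list Nt5c2, another cytosolic nucleotidase gene, was lower in Gr1lo by -1.29 (7.87 ± 0.11 in Gr1lo and 9.16 ± 0.17 in Gr1hi). Ampd3, which encodes an AMP deaminase, was lower by -0.99 (10.51 ± 0.19 in Gr1lo and 11.50 ± 0.09 in Gr1hi), and the nucleoside transporter gene Slc29a3 by -0.93 (5.09 ± 0.11 in Gr1lo and 6.02 ± 0.07 in Gr1hi). Their adjusted p-values were 4.22e-05, 5.20e-05 and 0.00140. Of 13 tested genes 6 were higher and 3 lower in Gr1lo with a median of 0.30, where 31.8% of all tested genes were higher and 24.6% lower. With median centring 5 of the 13 were higher and 7 lower, with a median of -0.38. Ada, Pnp, Ahcy, Nt5c and Mtap stayed called higher, and Nt5c2, Ampd3 and Slc29a3 lower, on every scale tried. Mtap, at 4.07 ± 0.74 in Gr1lo and 2.62 ± 0.25 in Gr1hi, was within background in Gr1hi and passed the filter there on 1 array, so it entered the test through Gr1lo.

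**Figure D4:**
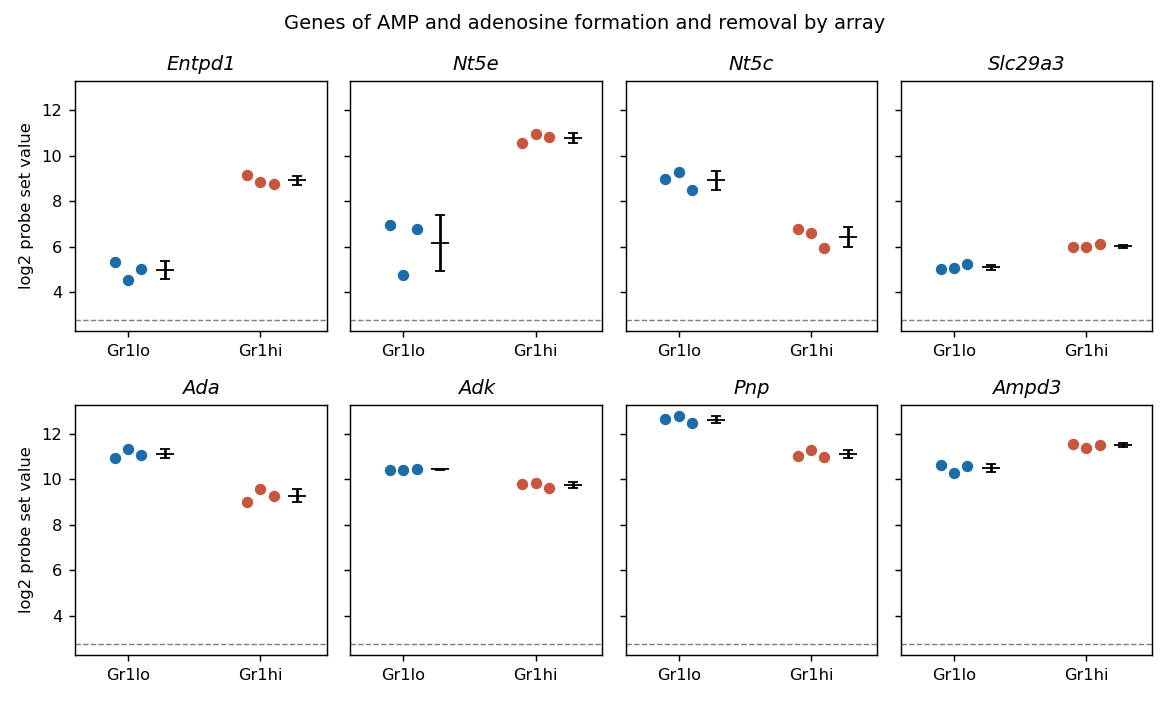
Log2 probe set value (y axis) of Entpd1 and Nt5e and of 6 genes of nucleoside and nucleotide handling on each Gr1lo and Gr1hi array, with mean and SD beside the points (n = 3 per group) and the dashed line at 2.77. Entpd1, Nt5e, Slc29a3 and Ampd3 lie lower in Gr1lo, and Nt5c, Ada, Adk and Pnp lie higher.

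Genes of ATP release had 1 call in each direction among 6 tested on the deposited scale, where 24.6% of all tested genes were lower and 31.8% higher. Panx1, which encodes the pannexin channel that passes ATP, was higher in Gr1lo by 0.88 (3.86 ± 0.30 in Gr1lo and 2.98 ± 0.13 in Gr1hi, adjusted p = 0.00148), a call lost with median centring. Gja1, a connexin gene, was lower by -0.39 near background (adjusted p = 0.0334), a call lost with control centring. The remaining 4 did not pass on that scale, whereas with median centring 4 of the 6 were called lower, with Gja1, Panx2, Panx3 and Slc17a9 lower by -1.06, -0.87, -0.79 and -0.78.

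Downstream of the receptors, genes of the G proteins and of cAMP signalling were called in both directions, 7 of 22 higher and 6 lower in Gr1lo, with a median of 0.11. These shares are near the 31.8% higher and 24.6% lower over all tested genes. Adenosine A2 receptors raise cAMP, while P2Y13 lowers it through inhibitory G proteins. Pde4b, which encodes a phosphodiesterase that degrades cAMP, read 6.66, 5.85 and 5.48 in Gr1lo, against 9.53, 9.08 and 10.22 in Gr1hi (difference -3.61, SE 0.35, adjusted p = 1.76e-05). Pde7a, another cAMP phosphodiesterase gene, was the opposite, at 6.62 ± 0.38 in Gr1lo and 4.39 ± 0.22 in Gr1hi (difference 2.23, adjusted p = 3.45e-05). Among subunits of the cAMP-dependent kinase, Prkar2a was higher in Gr1lo at 10.12 ± 0.03, against 7.48 ± 0.50 in Gr1hi (difference 2.64, adjusted p = 7.67e-06).

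The inhibitory G protein genes Gnai2 and Gnai3 were lower in Gr1lo by -0.85 and -0.39, and Gnaq by -0.65 (adjusted p = 1.54e-05, 0.00128 and 0.00104). The stimulatory G protein gene Gnas and the adenylyl cyclase gene Adcy7 were higher by 0.65 and 1.06 (adjusted p = 5.38e-05 and 1.82e-04). Prkar1a and Creb1 were also lower, and Gna11, Rapgef3 and Prkacb also higher. The call of Creb1 rests on its brightest probe set (difference -0.39). Its next brightest was at 9.34 in both groups, and none of its other tested probe sets was called. The balance over the list rests on the scale. With median centring 3 genes were higher and 12 lower, and with the hybridization controls 10 were higher and 2 lower. Gnai2, Pde4b, Pde7a, Prkar2a and Adcy7 kept their calls on both, whereas Gnai3 and Gnaq did not on the second, and Gnas was at -0.03 on the first.

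Although P2rx7 itself was not above background, 6 of 8 genes of the inflammasome that it can start were lower in Gr1lo and 1, Pycard, was higher, where 24.6% of all tested genes were lower and 31.8% higher. Nlrp3, the sensor gene, was lower by -3.34 and Il18, the gene of an interleukin that the complex matures, by -2.82 (3.82 ± 0.39 in Gr1lo and 6.64 ± 0.34 in Gr1hi). The Gr1lo level of Nlrp3 was near background (2.89 ± 0.36, against 6.23 ± 0.44 in Gr1hi), so the size of its difference is open to that level. Txnip and Il1b were lower by -2.23 and -7.38, and Il1b spread widely between the Gr1lo arrays (5.24 ± 1.33, against 12.62 ± 0.27 in Gr1hi). The caspase gene Casp1 and the gasdermin gene Gsdmd were lower too. Adjusted p-values of these 6 were 2.72e-04 or lower, and they were called on every scale tried. The higher call of Pycard was lost with median centring, where it was at -0.02.

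**Figure D5:**
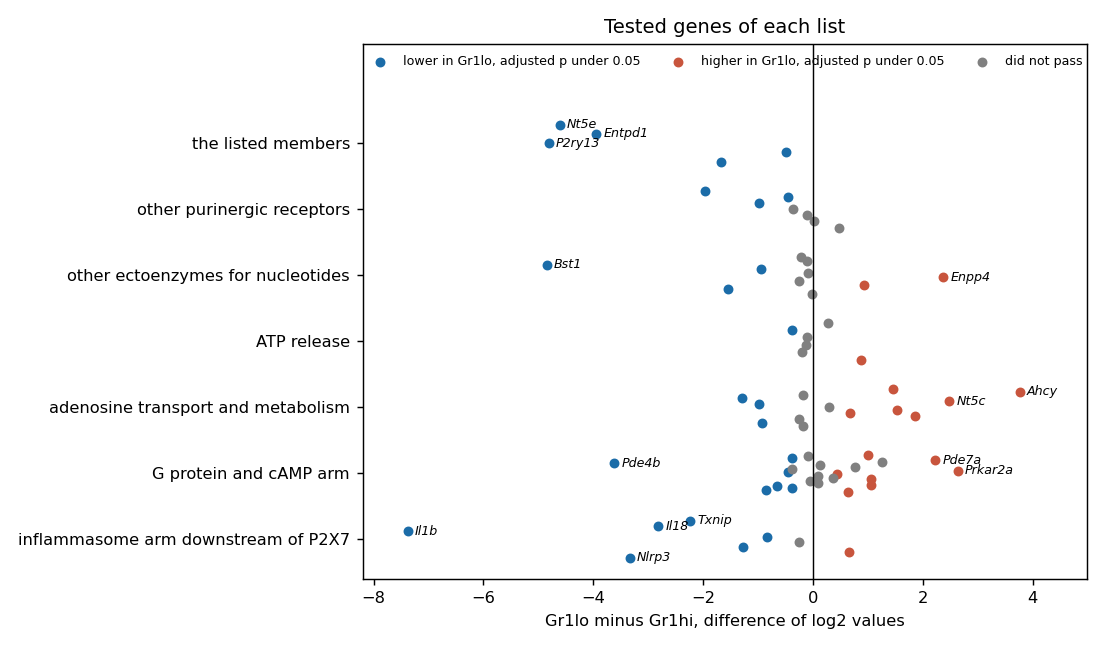
Difference of log2 values, Gr1lo minus Gr1hi (x axis), of every tested gene, 1 point per gene, in the listed purinergic members and in 6 further lists of the pathway. Genes more than 2 units from 0 are named; all 5 members lie left of 0, while the lists of adenosine metabolism and of G proteins and cAMP have called genes on both sides.

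Several of these genes are also expressed by other leukocytes, and in bulk samples fewer cells of a type and less RNA per cell cannot be told apart. Each count of called markers here stands beside shares of 24.6% lower and 31.8% higher in Gr1lo over all tested genes. Of 12 tested monocyte and macrophage markers, 3 were lower in Gr1lo (Csf1r, Adgre1 and Cd68) and 2 higher (F13a1 and Vcam1). Their summed signal, on the linear scale over 14 genes, was 2298.5 to 3318.5 in Gr1lo and 4625 to 5854 in Gr1hi. Csf1r carried most of the Gr1hi sum, and without it the other 13 genes summed to 2204 to 2934 in Gr1lo and 1299.5 to 2244 in Gr1hi. These ranges overlap with Gr1lo the higher, but in Gr1lo that sum was mostly Vcam1 and F13a1. Vcam1 had means of 10.31 in Gr1lo and 5.05 in Gr1hi, and F13a1 of 9.80 and 8.82. The direction without Csf1r thus rests on few genes. Among macrophage markers, C1qa, C1qb, C1qc and Mrc1 had means of 2.50, 3.24, 1.71 and 3.06 in Gr1lo, and 2.84, 3.59, 1.90 and 2.83 in Gr1hi, where C1qa and C1qc did not pass the filter and C1qb and Mrc1 did not pass the test. Of 6 tested T and NK cell markers 2 were lower in Gr1lo, with a summed signal over 12 genes of 81.5 to 103 in Gr1lo and 421 to 485 in Gr1hi. That sum was carried by Cd3d (4.32 in Gr1lo and 8.49 in Gr1hi), while Cd3e, Cd3g and Cd247 were within background in both groups. Without Cd3d the other 11 genes summed to 68.8 to 70.7 in Gr1lo and 78.0 to 89.1 in Gr1hi. Megakaryocyte and platelet markers, relevant to P2ry12, had 2 of 4 tested lower in Gr1lo and a summed signal over 6 genes of 78.0 to 163 in Gr1lo and 237 to 258 in Gr1hi, with Ppbp and Gp6 within background. Itgb3 carried most of that sum (6.50 in Gr1lo and 7.71 in Gr1hi), and without it the other 5 genes summed to 31.2 to 34.9 in Gr1lo and 35.9 to 39.1 in Gr1hi. With median centring 4 of the 4 tested were lower, and with control centring 1. Neither of 2 tested eosinophil markers passed, with a sum over 6 genes of 303 to 441 in Gr1lo and 301 to 357 in Gr1hi, and Epx, Prg3, Il5ra and Ccr3 within background. Siglecf carried most of that sum, and without it the other 5 genes summed to 27.8 to 36.0 in Gr1lo and 29.3 to 63.9 in Gr1hi. Of 4 tested dendritic cell markers 1 was lower, Itgax (2.48 in Gr1lo and 5.77 in Gr1hi, difference -3.29). Itgax passed the filter on 1 Gr1lo array and 3 Gr1hi arrays, so it entered the test through Gr1hi, and its Gr1lo mean was within background. Of 7 tested B and plasma cell markers 3 were lower (Ms4a1, Ebf1 and Cd79a) and 1 higher (Cd79b), and of 3 tested endothelial and stromal markers 2 were lower (Cdh5 and Col1a1). Cdh5 passed the filter on 0 Gr1lo arrays, and Cd79a and Col1a1 on 1, against 3 Gr1hi arrays each. Cdh5, Cd79a and Col1a1 so entered the test through Gr1hi, and their Gr1lo means of 2.44, 2.53 and 2.50 were within background. Their calls are no evidence about these lists. Higher in Gr1lo were 2 of 6 tested basophil and mast cell markers (Kit and Ms4a2), 2 of 6 tested stem and progenitor markers (Kit and Hlf) and 1 of 4 tested erythroid markers (Tfrc). The part of these cell types in the differences of the purinergic genes was not tested.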

How the data were processed

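Sorted marrow cells gave total RNA, which was biotin-labelled and hybridised to 3′ arrays (per the labels). The authors deposited log2 values per probe set. The submitters' processing notes name GCRMA, with version and options not given in the sources read. The table held 45101 probe sets on 6 arrays and no detection calls. Symbols came from the platform annotation given with the series: 34945 probe sets had 1 symbol, 932 several, 9160 none, and 64 were controls. Only probe sets with 1 symbol were used.

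Each gene took its probe set with the highest mean, and was kept for testing if 3 or more of its 6 values were over the 40th percentile of their arrays (12732 genes). Gr1lo minus Gr1hi was fitted in R 4.3.3 by limma 3.58.1 (lmFit and trended eBayes, two-sided, 4 residual and 5.10 prior degrees of freedom). The median replicate SD was 0.151 in Gr1lo and 0.153 in Gr1hi. A separate fit covered 22695 probe sets. The fit was tested on simulated data. Promoters came from RefSeq (GRCm38.p6).

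The members and lists were chosen with earlier results of these data known. Named were all members, the called genes of each further list with values for up to 4 per direction by smallest p, the next RefSeq genes of members where measured, and the 3 genes most correlated with the member of largest difference; P2rx1, Adk and the single cell markers are printed outside that rule, picked with their values known.

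The settings varied were the filter (none, or the 60th percentile), probe sets averaged or taken singly, other eBayes settings, repeated quantile normalization, 2 centrings, array weights, a replicate block, a threshold of 0.01, and arrays left out singly or as replicate pairs.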

Additional observations from a re-analysis of the deposited data

How the results depend on the processing

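The 5 members called lower in Gr1lo stayed 5, and those called higher stayed 0, under all alternatives run except 2, each of which left 4 lower: a filter at the 60th percentile, which set P2ry2 aside and so gives no value for it, and centring on the hybridization controls, where P2ry2 was -0.23 (adjusted p = 0.278). Over all settings the difference ranged from -5.49 to -4.56 in P2ry13, from -4.62 to -3.02 in Entpd1, from -5.29 to -1.95 in Nt5e and from -2.36 to -0.71 in P2rx4, with adjusted p-values of 0.00252 or lower. With both replicate 3 arrays left out P2ry2 differed by -0.46 (adjusted p = 0.0416); with both replicate 1 arrays left out, an alternative chosen after seeing that their poly-A controls were higher (6.36 in Gr1lo and 6.52 in Gr1hi, against 5.45 to 5.82 on the other arrays), it differed by -0.54. Among the 66 further pathway genes, 22 lower and 17 higher became 44 lower and 9 higher when each array was centred on its tested genes' median, a centring that itself lowers all differences in Gr1lo. Replicate numbers are shared by the groups. Deviations of same-numbered arrays had an r of 0.166, 0.004 and 0.145 for pairs 1, 2 and 3. Arrays of unlike number had an r of -0.188 to 0.044, so pairs 1 and 3 lay above all of these and pair 2 did not. Xist was high on the replicate 3 array of both groups and on no other array. Matched replicates are thus possible, and the main fit assumed no pairing. With the replicate number as a block the members called lower were 5 and the further genes called higher were 18. No array has a detection call, so differences of probe sets near 2.77 are limited by background.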
